A study of Homo sapiens with 6 samples.

Results

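The RNAs examined here are those of the mitochondrial genome, a small circular DNA kept in many copies inside the organelle, and their counts were compared between T98G cells depleted of the kinase DYRK1A and control cells. Members were the genes whose symbol begins with MT- in the authors' table of normalized gene counts, joined by gene identifier to the count table of each library. This gave 27 genes of the 58174 counted, namely all 13 protein-coding genes, both ribosomal RNA (rRNA) genes and 12 transfer RNA (tRNA) genes. The annotation holds 37 mitochondrial genes, and the 10 tRNA genes outside the rule had no counts in any library.

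T98G is a human glioblastoma cell line. Cells were infected with a lentivirus that delivers a control short hairpin RNA (shControl) or a hairpin against DYRK1A (shDYRK1A), selected with puromycin and left to recover without it, with 3 libraries per condition. Where 3 values are given for a condition, they belong to its libraries 1A, 1B and 1C in that order. Both conditions share the infection, the selection and the addition of a fixed number of Kc167 cells, a Drosophila line whose RNA set the authors' scale, and the sources used here do not say which of the study's hairpins was in these cells. The labels do not say that the libraries of a condition came from separate cultures, so p-values measure the spread between these libraries. Human gene counts summed to between 33708297 and 42154438 per library, and the authors' size factors ranged from 0.821 to 1.03 in shControl and from 1.06 to 1.21 in shDYRK1A. With the spike-in scale DYRK1A itself fell by 0.73 on the log2 scale (SE 0.147, edgeR's quasi-likelihood test, adjusted p = 5.3e-06), where the median of all genes tested was -0.40. With TMM scaling (edgeR's trimmed mean of M-values, taken over the human genes) it fell by 0.34 (SE 0.0594, adjusted p = 0.00059). Of the markers of a glioblastoma line, VIM, CD44 and EGFR had at least 4445 counts in every library, and NES and OLIG2 had only 43 to 85. GFAP and SOX2 were looked for and were not among the named genes of the authors' normalized table. Genes outside that table had at most 9 counts summed over all libraries. PTPRC, EPCAM, ALB and PECAM1, markers of other cell types, had 0 to 65 counts.

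Transcription of mitochondrial DNA starts at promoters for each of its strands and yields long RNAs that cover many genes. The heavy-strand transcript carries both rRNAs, most tRNAs and nearly all mRNAs, and the light-strand transcript carries MT-ND6 and a smaller set of tRNAs. The tRNAs sit between the other genes, and their excision by the nuclear-encoded enzymes RNase P and ELAC2 frees the mRNAs and rRNAs, after which most mRNAs receive a short poly(A) tail. The mRNAs encode core subunits of the respiratory chain and of ATP synthase, and the rRNAs build the ribosome that translates them. Among the 27 members, 20 belong to the heavy-strand transcript and 7 to the light-strand one (MT-ND6 and the tRNA genes MT-TP, MT-TE, MT-TS1, MT-TY, MT-TA and MT-TQ).

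The sequences of 5 light-strand tRNA genes and of MT-TT, a heavy-strand neighbour of MT-TP, are shown because these 6 tRNA genes passed the test between conditions. They are read in the sense of the RNA from the transcripts of GENCODE v29 (GRCh38), 5′ to 3′, and capitals mark the anticodon, found as the only anticodon arm that reads the right codon. MT-TT is in lower case throughout because 2 such arms were found. Light-strand genes lie on the minus strand of the reference.
MT-TP (tRNA for proline), chrM:15956-16023, minus strand: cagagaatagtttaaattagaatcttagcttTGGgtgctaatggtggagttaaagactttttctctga
MT-TE (tRNA for glutamate), chrM:14674-14742, minus strand: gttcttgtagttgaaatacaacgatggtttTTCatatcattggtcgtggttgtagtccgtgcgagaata
MT-TA (tRNA for alanine), chrM:5587-5655, minus strand: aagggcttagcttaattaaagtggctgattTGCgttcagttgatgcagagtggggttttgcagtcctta
MT-TS1 (a tRNA for serine), chrM:7446-7514, minus strand: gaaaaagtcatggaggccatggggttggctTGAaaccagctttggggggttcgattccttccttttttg
MT-TQ (tRNA for glutamine), chrM:4329-4400, minus strand: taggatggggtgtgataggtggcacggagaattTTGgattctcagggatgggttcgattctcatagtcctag
MT-TT (tRNA for threonine), chrM:15888-15953, plus strand: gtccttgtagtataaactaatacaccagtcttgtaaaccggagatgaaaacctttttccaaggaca

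MT-ND6, the single light-strand mRNA, begins at the base after the 3′ end of MT-TE. The junction is shown because both genes differed between conditions, with 30 bases of MT-TE followed by 30 bases of MT-ND6 and its start codon in capitals.
MT-TE to MT-ND6, chrM:14644-14703, minus strand: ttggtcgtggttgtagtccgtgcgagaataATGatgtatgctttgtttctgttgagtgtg
MT-ND6 also differs in base composition from the other mRNAs. Guanine made up 35.62% and cytosine 7.05% of its 525 bases, whereas guanine made up 6.28 to 16.21% of the 12 heavy-strand mRNA genes.

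A pair of adjoining mRNA genes overlap on the heavy strand, which bears on how their reads were counted. MT-ATP8 and MT-ATP6, subunits of ATP synthase, are read from 1 mRNA and share 46 bases, or 22.22% of MT-ATP8, in capitals in the last 90 bases of MT-ATP8. MT-ND4L and MT-ND4, subunits of complex I, share 7 bases, in capitals in the last 40 bases of MT-ND4L.
MT-ATP8 end, chrM:8483-8572, plus strand: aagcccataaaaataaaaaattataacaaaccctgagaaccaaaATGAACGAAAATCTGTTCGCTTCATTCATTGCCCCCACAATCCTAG
MT-ND4L end, chrM:10727-10766, plus strand: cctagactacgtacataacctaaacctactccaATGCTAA
A read pair that touches more than 1 gene is set aside as ambiguous by the STAR gene counter, so the counts of MT-ATP8 and MT-ND4L are uncertain. Most other mRNA and rRNA genes directly adjoin a gene of the same strand, such as MT-ND3, MT-RNR1 and MT-RNR2. Their counts and levels per kilobase are uncertain in the same way, by an amount that was not tested. Ambiguous pairs were 4.19 to 4.38% of the pairs assigned to genes or set aside as ambiguous.

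Mitochondrial RNA was dominated by mRNAs in every library. The 13 mRNAs took 86.3, 87.0 and 87.1% of all mitochondrial counts in shControl, and 88.2, 87.7 and 87.8% in shDYRK1A, and the shDYRK1A libraries were all higher. The rRNAs took 13.1% ± 0.409 (SD, n = 3) in shControl and 12.1% ± 0.236 in shDYRK1A, lower in every shDYRK1A library. The 12 tRNA genes together had only 890, 984 and 984 raw counts in shControl and 767, 587 and 700 in shDYRK1A. These RNAs without a long poly(A) tail are poorly captured by the mRNA kit that was used, so the levels of rRNAs and tRNAs describe what the libraries held and not their abundance in the cells. The tails of single mRNAs, MT-ND6 among them, were not measured. For these mRNAs too, a difference in capture cannot be told apart from a difference in abundance.

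As a share of all human gene counts, the mRNAs were higher and the tRNAs lower in every shDYRK1A library, and the rRNAs overlapped. The mRNAs took 4.48, 4.55 and 4.33% of human counts in shControl and 4.99, 4.99 and 4.79% in shDYRK1A. The rRNAs took 0.674% ± 0.0332 (SD, n = 3) in shControl and 0.677% ± 0.0172 in shDYRK1A. The tRNAs took 0.00233% ± 6.8e-05 in shControl and 0.00182% ± 0.00014 in shDYRK1A, with every shDYRK1A library below every shControl library. Scaled by the spike-in, summed counts of each class were lower on average in shDYRK1A, with log2 differences of the group means of logs of -0.28 for mRNA, -0.42 for rRNA and -0.78 for tRNA. The groups overlapped for the mRNAs and separated for the rRNAs and tRNAs. The study's methods give the same number of T98G cells in each condition's mix with fly cells. The tables hold no cell counts, and in bulk libraries fewer human cells and less RNA per cell cannot be told apart.

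Levels per length spanned a wide range within the heavy-strand transcript. Given as CPM, the counts scaled to 1e+06 human gene counts per library, per kilobase of gene, MT-CO2, a subunit of complex IV, was highest at 9967 ± 188 (SD, n = 3) in shControl and 11254 ± 443 in shDYRK1A. The other complex IV genes came next, MT-CO3 at 7860 ± 218 and MT-CO1 at 6351 ± 136 in shControl. They were followed in shControl by MT-ND4 (5228 ± 133), MT-ATP6 (4513 ± 167), MT-RNR2 (3664 ± 175), MT-CYB (3290 ± 80.7), MT-ND2 (2562 ± 90.3) and MT-ND1 (2043 ± 96.8). At the lower end stood MT-ND3 (1690 ± 37.0), MT-ND4L (1509 ± 79.8), MT-RNR1 (1082 ± 66.1), MT-ND5 (945 ± 34.7), MT-ATP8 (604 ± 138) and MT-ND6 (427 ± 56.5). Each gene in this order was separated from the next by non-overlapping shControl libraries, except MT-ATP8 and MT-ND6, whose ranges overlapped. The order in shDYRK1A was the same with 1 exchange, in which MT-CYB at 4237 ± 64.1 stood above MT-RNR2 at 3574 ± 63.6.

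**Figure D1:**
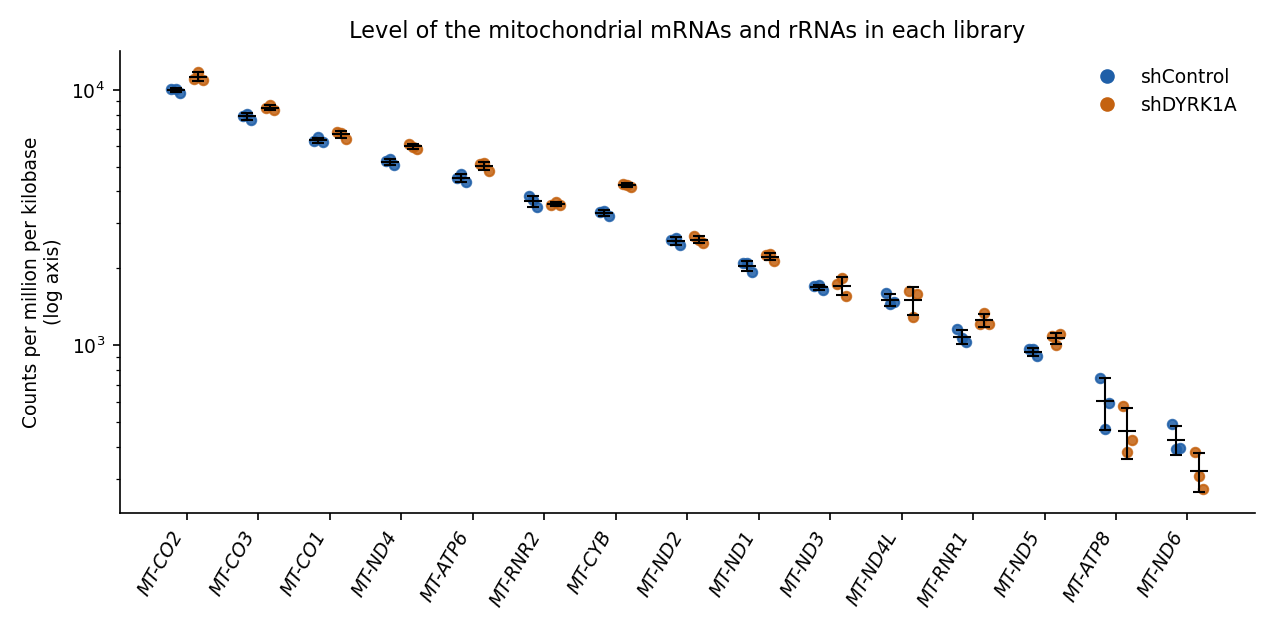
Level of the 13 mRNAs and both rRNAs in each library, as CPM per kilobase of gene on a log axis, with genes ordered by their shControl mean; points are libraries and bars the mean ± SD of 3. MT-CO2 is highest at 9967 in shControl and MT-ND6 lowest at 427, and MT-CYB has means of 3290 in shControl and 4237 in shDYRK1A.

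The overlapping pairs stood far apart although each pair lies on 1 mRNA. MT-ATP8 was at 604 and MT-ATP6 at 4513 CPM per kilobase in shControl. The ratio of raw counts of MT-ATP8 to MT-ATP6 was 0.0503, 0.0305 and 0.0418 in shControl and 0.0345, 0.0225 and 0.0268 in shDYRK1A, and the groups overlapped. The ratio of MT-ND4L to MT-ND4 was 0.0658, 0.0582 and 0.0627 in shControl and 0.0572, 0.0465 and 0.0583 in shDYRK1A, which also overlapped. On the log2 scale the ratio of MT-ATP8 to MT-ATP6 had an SD of 0.36 in shControl and 0.31 in shDYRK1A, against 0.04 and 0.06 for the ratio of MT-RNR2 to MT-RNR1. The part of ambiguous pairs in these ratios was not tested.

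With the spike-in scale, the mitochondrial genes above the study's filter of 10 CPM were lower in shDYRK1A or did not pass the test. Of the 13 mRNAs and 2 rRNAs, 10 were lower at an adjusted p below 0.05, none was higher and 5 did not pass, against 63.4% of the 9697 genes tested that were lower (edgeR's quasi-likelihood test, Benjamini-Hochberg over those genes). At the study's further threshold of -0.7 in log2 fold change, 2 of the 15 were called, MT-ND6 and MT-ATP8, against 14.3% of all genes tested. All 15 fold changes were negative, as were 93.61% of those of all genes tested. None of the 15 was therefore higher at an unadjusted p below 0.05 either, and none was higher in DESeq2's Wald test. The median log2 fold change was -0.32 over the 15 genes and -0.40 over all genes tested. The share of the 15 genes that were lower was near that of all genes tested.

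MT-ND6, a subunit of complex I, had the lowest fold change of the 15. Scaled by the spike-in, it had 12426, 9886 and 8320 counts in shControl and 7366, 5047 and 4808 in shDYRK1A. All shDYRK1A libraries were below all shControl libraries, with a log2 fold change of -0.83 (SE 0.134, adjusted p = 1.3e-08). The other complex I genes had smaller differences. MT-ND2 had 129450, 131555 and 102941 scaled counts in shControl and 101818, 84142 and 86849 in shDYRK1A, with a log2 fold change of -0.42 (SE 0.123, adjusted p = 0.002), and the groups were separated by a small margin. MT-ND1 (-0.31), MT-ND3 (-0.41) and MT-ND4L (-0.43) were lower too, while MT-ND4 (-0.23, adjusted p = 0.078) and MT-ND5 (-0.25, adjusted p = 0.063) did not pass.

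The complex IV genes lay close together, and MT-CYB, the only mitochondrial gene of complex III, stood apart. The log2 fold changes of MT-CO1 and MT-CO3 were -0.35 (SE 0.119, adjusted p = 0.0064) and -0.32 (SE 0.12, adjusted p = 0.016), and that of MT-CO2 was -0.26 (adjusted p = 0.051). MT-CYB had 181966, 183116 and 146465 scaled counts in shControl and 179543, 151526 and 158375 in shDYRK1A, and the groups overlapped. Its log2 fold change of -0.06 (SE 0.121, adjusted p = 0.64) was the highest of the 15.

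Among the ATP synthase genes, MT-ATP8 had 7429, 4656 and 4958 scaled counts in shControl and 4409, 2474 and 2925 in shDYRK1A, a log2 fold change of -0.80 (SE 0.138, adjusted p = 1.2e-07). The shDYRK1A 1A library lay close to the lowest shControl library. MT-ATP6 had a log2 fold change of -0.27 (SE 0.122, adjusted p = 0.041). The rRNA genes differed in the test result. MT-RNR2, the rRNA of the large subunit, had 286543, 275445 and 217414 scaled counts in shControl and 202789, 177549 and 183183 in shDYRK1A, with no overlap and a log2 fold change of -0.47 (SE 0.121, adjusted p = 0.00039). MT-RNR1, the rRNA of the small subunit, had 53017, 48540 and 39315 in shControl and 42351, 40003 and 38375 in shDYRK1A, which overlapped, with a log2 fold change of -0.22 (adjusted p = 0.11).

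These calls moved with single libraries and with the scale. Of shControl libraries, leaving out 1A or 1B reduced the 10 lower genes to 6, and leaving out 1C raised them to 14. Of shDYRK1A libraries, leaving out 1B or 1C reduced them to 5. The 2 genes called past -0.7 became 0 when shControl 1A was left out and 1 when shDYRK1A 1B was left out. With TMM scaling over the human genes, under which the median log2 fold change of all genes was 0.00, 1 of the 15 was lower (MT-ND6, -0.43, adjusted p = 0.0085) against 28.6% of all genes, and 6 were higher against 27.3%. The higher genes were MT-CYB (0.34), MT-RNR1 (0.19), MT-ND4 (0.18), MT-CO2 (0.15), MT-ND5 (0.15) and MT-ATP6 (0.14). With TMM over the 17530 genes that edgeR's filterByExpr keeps, 1 of the 15 was again lower, against 21.0% of those genes. There 3 of the 15 were higher, MT-CYB, MT-RNR1 and MT-ND4, and 3323 of the 17530 genes were higher.

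**Figure D2:**
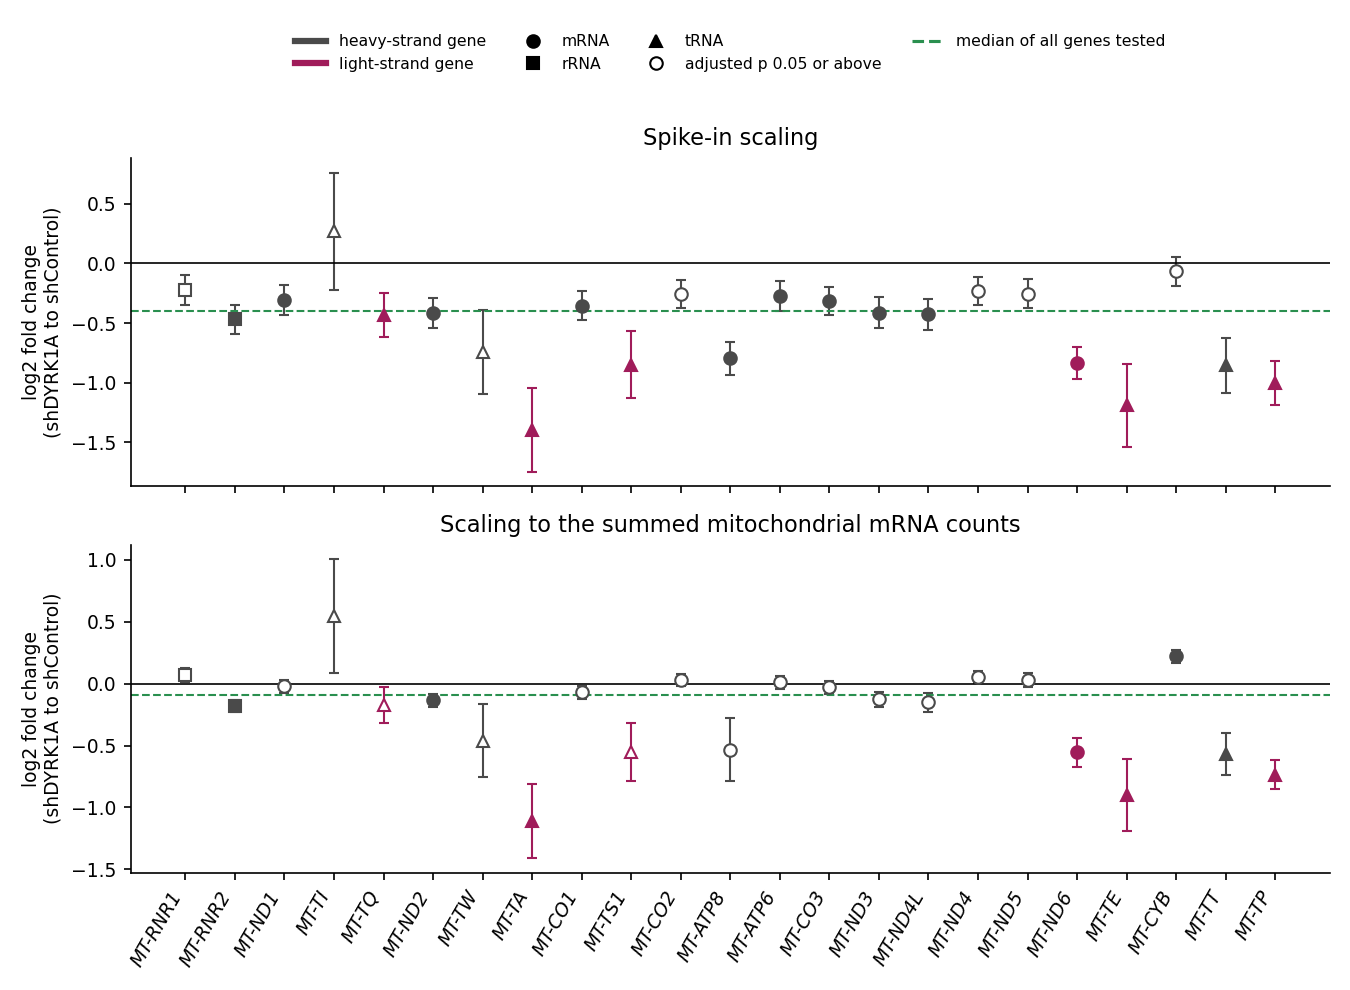
Log2 fold change of shDYRK1A to shControl for the 23 mitochondrial genes that could be tested, in the order of the genome, with the spike-in scale above and the summed mitochondrial mRNA counts as the scale beneath; bars are the standard error, open symbols did not pass an adjusted p of 0.05 and the dashed line is the median of all genes tested. In the upper panel the dashed line is the median of the 9697 genes above 10 CPM (-0.40). The tRNA genes of that panel are from the fit over 17530 genes, whose median was -0.37. On both scales MT-TA is lowest (-1.39 and -1.11), and MT-CYB is the only gene that passes upward, at 0.22 on the lower scale.

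The tRNA genes were too low for the filter of 10 CPM, so they were tested among the 17530 genes kept by edgeR's filterByExpr, with the same spike-in scale. Of the 12 counted tRNA genes, 8 were kept, of which 6 were lower, none was higher and 2 did not pass, against 44.2% of the genes tested that were lower. None was higher at an unadjusted p below 0.05 or in DESeq2's Wald test. The median log2 fold change was -0.85 over the 8 genes and -0.37 over all genes tested. All 5 light-strand tRNA genes that were kept were lower, and of the 3 heavy-strand ones 1 was lower. MT-TF, MT-TM, MT-TY and MT-TD, with 0 to 12 counts per library, were not kept. Among these, the light-strand gene MT-TY had 5, 7 and 3 raw counts in shControl and 1, 2 and 0 in shDYRK1A, which did not overlap and was not tested.

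MT-TP had the highest mean count of the tRNA genes, with 322, 324 and 388 raw counts in shControl and 217, 185 and 231 in shDYRK1A. The groups did not overlap on the raw or the spike-in scale, and the log2 fold change was -1.004 (SE 0.182, adjusted p = 6.7e-07). MT-TA had 50, 35 and 38 raw counts in shControl and 20, 15 and 23 in shDYRK1A, the lowest log2 fold change at -1.39 (SE 0.352, adjusted p = 0.00043). MT-TE had 47, 39 and 32 raw counts in shControl and 23, 22 and 19 in shDYRK1A, with a log2 fold change of -1.19 (SE 0.349, adjusted p = 0.0026). These 3 light-strand tRNA genes were lower in every shDYRK1A library before any scaling.

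MT-TS1 and MT-TQ, which also lie on the light-strand transcript, overlapped between conditions. MT-TS1 had 70, 74 and 46 raw counts in shControl and 48, 30 and 54 in shDYRK1A, with a log2 fold change of -0.85 (SE 0.278, adjusted p = 0.0074). MT-TQ had 199, 331 and 316 in shControl and 303, 220 and 239 in shDYRK1A, with a log2 fold change of -0.43 (SE 0.182, adjusted p = 0.04). Of the heavy-strand tRNA genes, MT-TT had 125, 126 and 106 in shControl and 91, 79 and 74 in shDYRK1A, which did not overlap, with a log2 fold change of -0.85 (SE 0.23, adjusted p = 0.001). MT-TW (-0.74, adjusted p = 0.072) and MT-TI (0.27, adjusted p = 0.67) did not pass.

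On the TMM scale, set by the human genes, 4 of the 8 tRNA genes were lower, against 21.0% of the genes tested, and the median log2 fold change was -0.47. The genes lower on that scale were MT-TA (-1.02, adjusted p = 0.0082), MT-TE (-0.81, adjusted p = 0.03), MT-TP (-0.64, adjusted p = 0.00015) and MT-TT (-0.48, adjusted p = 0.029), which left 3 of the 5 light-strand tRNA genes lower. MT-TS1 (-0.47, adjusted p = 0.13) and MT-TQ (-0.08, adjusted p = 0.72) did not pass there. MT-TQ also did not pass in DESeq2's Wald test (adjusted p = 0.057) or with no filter beyond 1 count (adjusted p = 0.069), both on the spike-in scale.

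The count of 6 lower tRNA genes became 4 when 1A or 1B of shControl, or 1B of shDYRK1A, was left out. MT-TE no longer passed when shControl 1A was left out (adjusted p = 0.058). MT-TQ no longer passed when 1B of shControl (adjusted p = 0.35), 1B of shDYRK1A (0.14) or 1C of shDYRK1A (0.26) was left out. MT-TS1 no longer passed when 1A of shControl (0.081), 1B of shControl (0.08) or 1B of shDYRK1A (0.084) was left out. MT-TP, MT-TA and MT-TT passed the test with every library left out in turn. A list of 13 small RNAs without a poly(A) tail was set beside these values as a measure of how much such RNA each library held. The 4 that were found, nearly all of it the signal recognition particle RNA RN7SL2, gave 17.0 to 32.3 CPM in shControl and 21.8 to 35.9 CPM in shDYRK1A, and the groups overlapped.

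Whether a tRNA gene was counted at all followed its distance to the nearest genes on the same strand. All 10 tRNA genes without counts had a same-strand gene within 31 bases on both sides. Of the 12 counted, 8 had a gap of at least 70 bases on 1 side and 4 had no same-strand gene on 1 side in the linear coordinates of the reference. The tRNA genes are 59 to 75 bases long, which is shorter than a single read of these libraries, and the part of pairs set aside as ambiguous in the counts of 0 was not tested. The distances to genes of either strand did not divide the genes in this way, since MT-TW lies 0 and 7 bases from such neighbours and had 20 to 36 counts. A count of 0 allows up to 3 counts per library, or 0.0712 to 0.089 CPM, and for these 10 genes it does not show that the RNA was absent.

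Within the counted genes, those with an open side had the highest means. MT-TP, MT-TQ and MT-TT, each with no same-strand gene on 1 side, had mean counts of 278, 268 and 100.2 per library, or 103, 94.5 and 38.5 CPM per kilobase. MT-TD, MT-TY and MT-TM were lowest at means of 2.33, 3 and 5.33 counts. MT-TF, the first gene of the heavy-strand transcript, has no same-strand gene before it and yet had a mean of 7.17 counts. Processed tRNA and longer precursor RNA cannot be told apart in these counts.

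**Figure D3:**
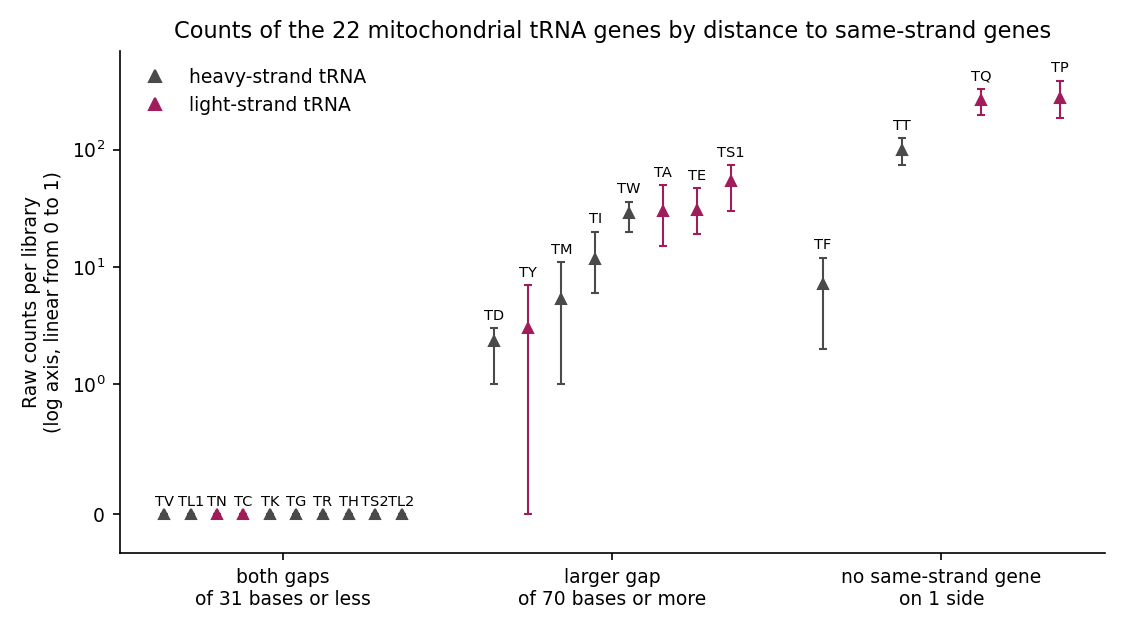
Raw counts of the 22 tRNA genes (log axis, linear from 0 to 1), grouped by the distance to same-strand genes in bases; symbols are means over 6 libraries and bars the lowest and highest library. The 10 genes with both gaps of 31 bases or less are at 0 in every library, and MT-TP and MT-TQ are highest at 278 and 268.

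To ask which genes moved apart from the bulk of mitochondrial mRNA, without the spike-in or nuclear genes, each library was scaled to its summed counts of the 13 mRNAs. On this scale 7 of the 23 genes that could be tested were lower, against 28.3% of all 17530 genes, and 1 was higher, against 11.8%. The lower genes were MT-ND6 and MT-ND2 among the mRNAs, MT-RNR2 among the rRNAs, and MT-TP, MT-TA, MT-TE and MT-TT among the tRNAs, and the higher one was MT-CYB. Of the 6 light-strand genes tested, 5 of them tRNA genes, 4 were lower. All 6 had negative fold changes, as had 60.84% of all genes tested, and their median was -0.65. Of the 17 heavy-strand genes tested, only 3 of them tRNA genes, 3 were lower and 1 was higher, with a median of -0.03. The heavy-strand mRNAs make up nearly all of the summed counts that set this scale, so their median near 0 is largely set by the scaling. Among tRNA genes alone, the median was -0.73 over the 5 light-strand genes and -0.46 over the 3 heavy-strand ones. Strand and RNA class cannot be told apart in the comparison of all 23 genes.

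MT-CYB was the gene that passed as higher on this scale. It had 845, 842 and 843 counts per 10000 mitochondrial mRNA counts in shControl and 981, 972 and 992 in shDYRK1A. All shDYRK1A libraries were higher, with a log2 fold change of 0.22 (SE 0.0514, adjusted p = 0.00087), and it passed with every library left out in turn. MT-ND4 had 1613, 1622 and 1620 in shControl and 1692, 1649 and 1692 in shDYRK1A, also without overlap, yet its log2 fold change of 0.05 did not pass (adjusted p = 0.44).

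MT-ND6 had 57.7, 45.4 and 47.9 counts per 10000 mitochondrial mRNA counts in shControl and 40.2, 32.4 and 30.1 in shDYRK1A. The groups did not overlap, and the log2 fold change was -0.56 (SE 0.116, adjusted p = 0.0034). MT-TP had 1.82, 1.69 and 2.17 in shControl and 1.12, 1.10 and 1.19 in shDYRK1A, with a log2 fold change of -0.73 (SE 0.119, adjusted p = 7.2e-06). MT-TA (-1.11, adjusted p = 0.0032), MT-TE (-0.90, adjusted p = 0.014) and MT-TT (-0.57, adjusted p = 0.0076) were separated as well. MT-TS1 (-0.55, adjusted p = 0.06) and MT-TQ (-0.17, adjusted p = 0.37) did not pass and overlapped.

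MT-RNR2 had 1331, 1266 and 1251 counts per 10000 mitochondrial mRNA counts in shControl and 1108, 1139 and 1147 in shDYRK1A, a log2 fold change of -0.18 (SE 0.052, adjusted p = 0.0056). MT-RNR1 had 246, 223 and 226 in shControl and 231, 257 and 240 in shDYRK1A, overlapping, with 0.07 (adjusted p = 0.39). MT-ND2 had 601, 605 and 592 in shControl and 556, 540 and 544 in shDYRK1A, a small difference of -0.13 without overlap (SE 0.0523, adjusted p = 0.041). MT-ATP8 at -0.53 (SE 0.256, adjusted p = 0.18) did not pass, and its libraries overlapped.

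Single libraries decided some of these calls. The count of 7 became 5 when shControl 1A was left out and 8 when shDYRK1A 1C was left out. MT-ND6 missed the threshold when shDYRK1A 1B was left out (adjusted p = 0.0996). MT-RNR2 (adjusted p = 0.061) and MT-TE (0.097) missed it when shControl 1A was left out, and MT-ND2 missed it with any 1 library left out (0.053 to 0.12).

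**Figure D4:**
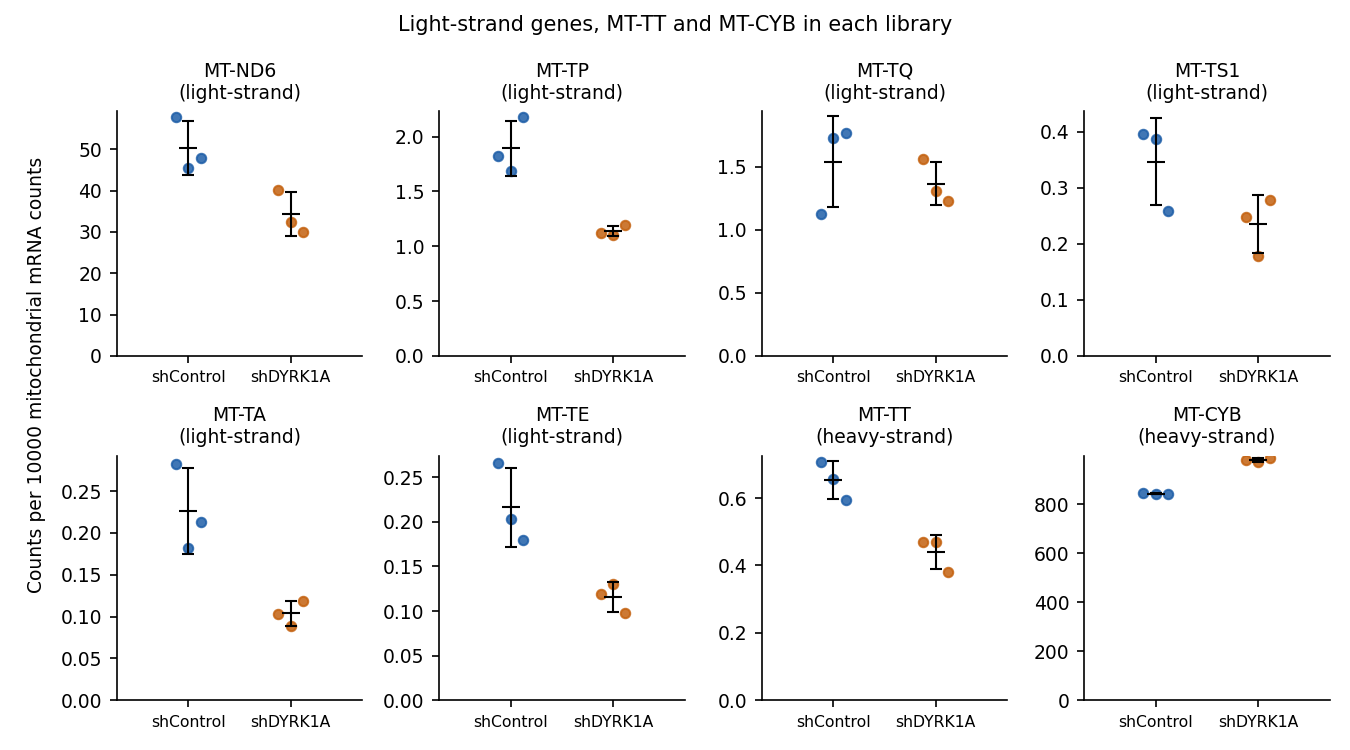
Counts per 10000 mitochondrial mRNA counts of 6 light-strand genes and of the heavy-strand genes MT-TT and MT-CYB, with a y axis from 0 in each panel; points are libraries and bars the mean ± SD of 3. MT-CYB lies at 842 to 845 in shControl and 972 to 992 in shDYRK1A, and MT-TP has means of 1.89 and 1.14.

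Ratios of raw counts between genes of 1 library need no scale, though they still depend on how well each RNA was captured. MT-ND6 and MT-ND5 are neighbours on opposite strands, and the log2 ratio of MT-ND6 to MT-ND5 was -2.76, -3.08 and -2.98 in shControl and -3.29, -3.50 and -3.80 in shDYRK1A. The difference of -0.59 separated the groups, with p = 0.1 in a two-sided exact permutation test, the smallest p that 3 libraries against 3 allow. Both rRNAs lie on 1 transcript, and the ratio of MT-RNR2 to MT-RNR1 was 5.40, 5.67 and 5.53 in shControl and 4.79, 4.44 and 4.77 in shDYRK1A. The log2 difference was -0.25, again without overlap and with p = 0.1 in the same exact test.

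Other ratios are given as a description. The ratio of rRNA to mRNA counts was 0.151 ± 0.00544 (SD, n = 3) in shControl and 0.137 ± 0.00305 in shDYRK1A, and that of tRNA to mRNA counts was 0.000523 ± 2.5e-05 in shControl and 0.000369 ± 2.4e-05 in shDYRK1A, each lower in every shDYRK1A library. The ratio of MT-CYB to MT-ND5, genes of the same transcript, was 2.19 ± 0.0295 in shControl and 2.51 ± 0.148 in shDYRK1A, higher in every shDYRK1A library. The ratio of MT-TP to MT-TT, adjoining tRNA genes of opposite strands, was 2.94 ± 0.627 in shControl and 2.62 ± 0.438 in shDYRK1A and overlapped.

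**Figure D5:**
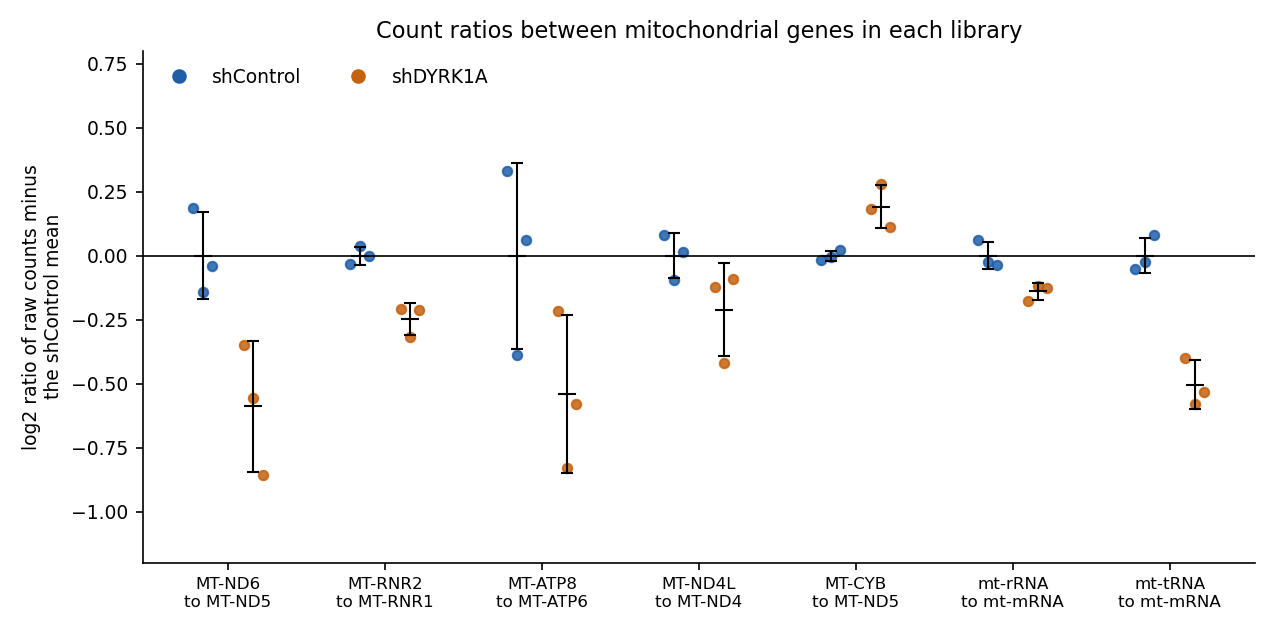
Log2 ratios of raw counts between mitochondrial genes or classes in each library, each shown as its difference from the shControl mean; points are libraries and bars the mean ± SD of 3. The ratios of MT-ND6 to MT-ND5 (-0.59), MT-RNR2 to MT-RNR1 (-0.25) and of tRNA to mRNA (-0.50) are lower in every shDYRK1A library, and MT-CYB to MT-ND5 (0.19) is higher.

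Nuclear copies of mitochondrial genes can take reads from the members, and the 3 with most counts lie side by side on chromosome 1. MTCO1P12 (chr1:631074-632616) had 8.78 to 10.4% of the MT-CO1 count in shControl and 8.38 to 9.43% in shDYRK1A. MTATP6P1 (chr1:633696-634376) had 9.85 to 12.9% of the MT-ATP6 count in shControl and 10.7 to 12.3% in shDYRK1A, and MTCO2P12 (chr1:632757-633438) had 0.522 to 0.844% of the MT-CO2 count in shControl and 0.671 to 0.888% in shDYRK1A. All 3 shares overlapped between conditions. These shares do not bound the uncertainty of the mitochondrial levels, since reads that map to more than 1 place are set aside by the STAR gene counter. Such reads from the whole library numbered 1015040 to 1250564 per library. The part of mitochondrial reads among them was not tested. All 25 copies together had 50090 to 63750 counts per library. Of the 7 above 10 CPM, 2 were lower on the spike-in scale, against 63.4% of all genes tested.

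A list of nuclear genes of mitochondrial RNA synthesis, processing, stability and decay and of DNA maintenance was read from the same spike-in fit. Of its 46 genes, 45 were above 10 CPM, of which 37 were lower, none was higher and 8 did not pass, against 63.4% of all genes tested that were lower. All 45 fold changes were negative, as were 93.61% of those of all genes tested, and DESeq2's Wald test likewise found none higher. The median was -0.47, with -0.40 over all genes tested. Under the headings of the list, 8 of 9 transcription genes, 10 of 12 processing genes and all 5 decay genes were lower. So were 6 of 10 genes of mRNA stability and polyadenylation and 8 of 9 genes of DNA maintenance. Some genes fit their heading only loosely, so these are counts by heading and not by function. With TMM scaling 17 of the 45 were lower, against 28.6% of all genes tested, and 6 were higher, against 27.3%.

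TFAM, which packages mitochondrial DNA and serves its promoters, had the lowest fold change of the list. It had 2382, 2650 and 2480 raw counts in shControl and 1245, 930 and 1357 in shDYRK1A, without overlap. Its log2 fold change was -1.40 (SE 0.147, adjusted p = 4.8e-19), and it was -0.996 with TMM scaling. The other transcription factors had smaller differences, with -0.56 for the elongation factor TEFM (adjusted p = 0.0015) and -0.37 for the promoter-melting factor TFB2M (adjusted p = 0.026). The polymerase POLRMT, at 41.8, 53.8 and 48.5 CPM in shControl and 56.2, 56.7 and 57.3 in shDYRK1A, did not pass on the spike-in scale (-0.19, adjusted p = 0.24) and was higher with TMM scaling (0.22, adjusted p = 0.029).

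Past -0.7 there were 10 of the 45, against 14.3% of all genes tested. Besides TFAM these were LRPPRC (-0.82), which with SLIRP stabilises mitochondrial mRNAs, the poly(A) polymerase MTPAP (-0.79), the RNA-binding FASTKD2 (-0.77) and FASTKD3 (-0.72), the deadenylase PDE12 (-0.86), RMND1 (-0.83), and the DNA maintenance genes DNA2 (-0.93), MGME1 (-0.76) and POLG2 (-0.73). This count became 6 when shControl 1A or shDYRK1A 1B was left out, 17 when shControl 1C was left out and 16 when shDYRK1A 1A was left out. SLIRP (-0.27, adjusted p = 0.089) and the rRNA methyltransferase MRM1 (-0.02, adjusted p = 0.91), the highest of the list, did not pass. ELAC2, which cuts the 3′ ends of tRNAs, was lower at -0.34 (adjusted p = 0.021), and did not pass when 1A or 1B of shControl, or 1B or 1C of shDYRK1A, was left out. No relation between these genes and the mitochondrial RNAs was tested.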

How the data were processed

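Libraries were prepared with a stranded mRNA kit and sequenced as paired reads. The authors deposited raw gene counts per library, with summary lines of the STAR gene counter, which entered neither library sizes nor tests. They also deposited size-factor normalized signal, equal to the counts divided by 1 constant per library, and these constants, which the study derived from fly reads, were used as the spike-in scale. The builds named are hg38 and dm3; aligner version, annotation and counting strand are not given in the sources used here. File coordinates of all 27 members equalled GENCODE v29. A further deposited table of the authors' comparison (log2 fold changes, errors, Wald statistic, p-values) was not used. Columns that matched no sample numbered 0.

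Genes with a mean normalized count above 10 CPM of the mean library size (9697) were tested with edgeR 4.0.16 (glmQLFit, robust, and glmQLFTest) and adjusted by the Benjamini-Hochberg method. A gene passed at an adjusted p below 0.05 and was called past ±0.7. The tRNA genes were tested over filterByExpr genes (17530), as was the scaling to summed mitochondrial mRNA. The SE is the fold change over the square root of F. The fits used R 4.3.3, and exact tests used scipy 1.17.1 under Python 3.11.15. The edgeR test with the spike-in scale was also run on simulated counts. No 2 libraries of a condition agreed within sampling noise. Alternatives were TMM (edgeR), median of ratios and the Wald test (DESeq2 1.42.0), other filters, the replicate letter as a block and each library left out. Members, the lists of genes and the rule on which genes to name were chosen with earlier results of these data known. The rule took all mRNA and rRNA genes, tRNA genes that passed plus the 3 highest and 3 lowest, DYRK1A, 8 nuclear genes of mitochondrial transcription and processing with every list member called and the lowest and highest, and the 3 nuclear copies with most counts. Floors of 3 counts cover counting error only.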

Additional observations from a re-analysis of the deposited data

How the results depend on the processing

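Scale, single libraries and depth limit these results, and the causes were not tested. TMM and median of ratios, computed on human genes, hold the median of all genes near 0. Under either, lower genes among the 15 went from 10 to 1, higher ones from 0 to 6 and those past -0.7 from 2 to 0, and in the nuclear list lower genes went from 37 to 17, higher ones from 0 to 6 and those past -0.7 from 10 to 1. Negative log2 fold changes turned positive under TMM and median of ratios for MT-RNR1 (0.192 and 0.195), MT-ND1 (0.102 and 0.105), MT-CO1 (0.0529 and 0.0561), MT-CO2 (0.154 and 0.158), MT-ATP6 (0.136 and 0.139), MT-CO3 (0.0933 and 0.0965), MT-ND4 (0.176 and 0.180), MT-ND5 (0.152 and 0.156), MT-CYB (0.343 and 0.347), ELAC2 (0.0639 and 0.067), MRM1 (0.384 and 0.387), POLRMT (0.218 and 0.221), SLIRP (0.144 and 0.147) and TFB2M (0.0282 and 0.0315), and for MT-ND3 under median of ratios (0.0014). DESeq2's Wald test, filterByExpr and no filter beyond 1 count gave 11, 9 and 8 lower genes among the 15. With filterByExpr 44.2% of all 17530 genes tested were lower, and no such share is given here for the others. TMM over the filterByExpr genes gave 1 lower and 3 higher genes among the 15, where 3680 of all 17530 genes tested were lower and 3323 higher. With TMM the log2 differences of summed classes were 0.0781 for mRNA, -0.0619 for rRNA and -0.426 for tRNA. Scaling by the median mRNA ratio moved MT-ND1 from -0.02 to 0.0017 relative to mitochondrial mRNA.

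Leaving out each library in turn gave 5 to 14 lower genes and 0 to 2 past -0.7 among the 15, 4 to 6 lower tRNA genes, 5 to 8 lower genes relative to mitochondrial mRNA, and 22 to 40 lower and 6 to 17 past -0.7 in the nuclear list. It moved MT-TI from -0.121 to 0.759, MT-ND5 relative to mitochondrial mRNA from -0.0187 to 0.0799, MRM1 from -0.128 to 0.061 and the difference in rRNA share from -0.0149 to 0.0182 percentage points, all uncalled values that changed sign. Without MT-TP, the tRNA share differed by -0.00023 percentage points and the log2 ratio of tRNA to mRNA by -0.39, against -0.00051 and -0.50 with it.

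Deviations from the group means correlated at 0.151, 0.073 and 0.128 between libraries of the same letter, for 1A, 1B and 1C. Libraries of different letters correlated at -0.094 to -0.014, so every library correlated best with its own letter. These values are weak and the check had no set threshold, so whether the letters pair the libraries is not known. With the letter as a replicate block 13 of the 15 genes, 6 of the 8 tRNA genes, 10 of the 23 relative to mitochondrial mRNA and 36 of the 45 nuclear genes were lower. Without the block, 63.4% of the 9697 genes above 10 CPM were lower on the spike-in scale. No share over all genes is given here for the block fits or for fits with a library left out, so those counts cannot be read against all genes. Depth limits MT-TF, MT-TM, MT-TY and MT-TD, which were not tested.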
